A study of Mus musculus with 3 samples.

Results

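Endothelial and haemato-endothelial progenitors were examined in single-cell RNA of 3 male embryos of wild-type mice, taken at embryonic day 8. The cells were chosen by their UMI counts (UMIs are molecular identifiers that count each captured transcript a single time). A cell was taken, here called gated, when it had at least 2 UMIs of Kdr, a UMI of at least 2 of the 7 co-markers Etv2, Flt1, Fli1, Rasip1, Egfl7, Esam and Tal1, and no UMI of Gata1, Klf1 or Sox2. The gate held 1251 of the 22168 cells that met the quality limits, with 351, 334 and 566 cells in embryos 1, 2 and 3. This was 5.73%, 4.12% and 7.14% of the cells of each embryo, or 5.66% ± 1.52 (SD, n = 3 embryos). Values given 3 in a row below are for embryos 1, 2 and 3, in that order.

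The embryos were of the strain C57BL/6 x 129 SvEv and carried no mutation or treatment, so that no condition was compared other than the class of cell. They were taken at 0 to 1 somites, although the stage field of the labels allows up to 2. The extraembryonic tissue was removed, and each embryo was dissociated alone and gave 1 library of 3′ transcript ends. Each comparison below is therefore between cells of the same animals, with the UMIs of a class summed per embryo. Every class compared has 3 sums except the erythroid cells, which have sums from embryos 2 and 3 alone.

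Vessels and the first blood cells arise from mesoderm that expresses KDR, the main receptor of vascular endothelial growth factor (VEGF). The ETS factor ETV2 acts for a short time at the start of this path and turns on other ETS factors (FLI1, ERG) and the basic helix-loop-helix factor TAL1, which with LMO2 and GATA2 serves both the endothelial and the blood lineage. At this stage angioblasts are assembling the paired dorsal aortae, the endocardium and the vessels of the allantois and yolk sac.

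Gated cells were sequenced about as deeply as the other cells of their embryo. Their median was 28994, 14975 and 14673.5 UMIs per cell, against 26594, 14430 and 16399 in the rest, and their median number of genes was 5356, 3963.5 and 3919. In all, they held 11688695, 6562444 and 10401819 UMIs. The top 6% of doublet scores took 5.98%, 5.99% and 7.24% of the gated cells and 5.42%, 5.82% and 5.37% of the rest. No gated barcode was shared between libraries, while the pairs of libraries shared between 14 and 20 of all kept barcodes.

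The genes that chose the cells are given as a description, with no test. Kdr (chr5:75932827-75978458, minus strand, GRCm38) reached 371, 357 and 380 UMIs per 1000000 UMIs of the class (CPM) in gated cells and 12.5 ± 2.25 CPM (SD, n = 3) in all other cells. Etv2 (chr7:30633616-30635852, minus strand) reached 389, 419 and 397 CPM against 16.9 ± 4.03 CPM. These levels differed little between embryos. Of the other co-markers, Flt1, the decoy receptor for VEGF, was at 139 ± 2.88 CPM, the ETS factor Fli1 at 147 ± 15.1 CPM and Tal1 at 131 ± 4.01 CPM. Egfl7, a protein secreted by endothelium, was at 280, 440 and 387 CPM. The junction protein Esam stood at 48.4, 74.4 and 52.9 CPM and Rasip1, a RAS effector needed for vessel lumens, at 67.2, 115 and 93.1 CPM. Egfl7, Esam and Rasip1 were lowest in embryo 1.

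Shares of cells with a UMI were also taken after cells were thinned to 5000 UMIs, leaving out 227 shallower cells (1 of the gated and 226 of the others), beside neural plate cells (at least 2 UMIs of Sox2 and a UMI of Pou3f1), which should lack these genes and so show the background from free RNA. Pooled medians before thinning were 17679 UMIs in gated and 30059 in neural plate cells. After thinning, Kdr was found in 77.4% ± 5.11 of gated cells and 3.35% of neural plate cells, and Etv2 in 68.7% ± 0.424 and 5.32%. Among genes that the gate did not use, Lmo2 was found in 58.1% ± 3.69 against 3.96% ± 0.731 and Cdh5, which encodes VE-cadherin, in 15.3% ± 2.99 against 0.234% ± 0.218 (unthinned, 74.1% ± 2.53 and 28.8% ± 2.82 of gated cells). Hbb-bh1, an embryonic globin, was found in 4.28% ± 5.28 of gated and 4.49% ± 5.75 of neural plate cells, so that its share in gated cells did not exceed the background.

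Promoter sequence is shown for Egfl7 and Flt1, since both are co-markers and each holds more than 1 copy of the letters that ETS factors bind. Genes of the endothelial lists were taken if they belonged to the gate or were called higher against all other cells, so these data chose the set. Of these 50 genes, 30 were matched to RefSeq promoters (GRCm38.p6, the 250 bases before a transcript start, 39 promoters in all). The letters AGGAAG or their reverse complement CTTCCT stood in 16 of the 39 (41.0%), against 29.5% of 32851 promoters. AGATAA or TTATCT, the letters of GATA factors, stood in 2 (5.13%, against 9.99%), and GTAAACA or TGTTTAC, the letters of forkhead factors, in 0 (against 3.17%). Both strands were searched for each motif. The Egfl7 promoter is chr2:26580833-26581082 on the plus strand, at 1 of 3 RefSeq starts, and the Flt1 promoter is chr5:147726012-147726261 on the minus strand. The printed Egfl7 start holds 3 copies of the ETS letters, and its other starts hold 1 and 0. Among other genes of the gate, Etv2 and Rasip1 hold 1 copy each, and Kdr and the starts of Tal1 hold 0. Both are written 5′ to 3′ along the gene, with the ETS letters in capitals. They describe the sequence and were not tested as binding sites.
Egfl7: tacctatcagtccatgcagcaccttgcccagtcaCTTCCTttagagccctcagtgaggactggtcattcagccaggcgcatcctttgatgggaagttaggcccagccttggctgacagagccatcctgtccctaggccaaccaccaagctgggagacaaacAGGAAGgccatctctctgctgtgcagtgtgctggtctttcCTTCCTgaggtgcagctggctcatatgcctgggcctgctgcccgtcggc
Flt1: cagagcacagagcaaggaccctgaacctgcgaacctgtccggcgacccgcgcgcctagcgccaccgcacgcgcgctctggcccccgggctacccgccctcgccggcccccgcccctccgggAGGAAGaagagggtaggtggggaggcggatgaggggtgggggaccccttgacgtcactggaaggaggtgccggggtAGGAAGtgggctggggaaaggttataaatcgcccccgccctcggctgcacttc

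The edge of the gate is described without a test. Of the gated cells, 203 (16.2%) had exactly 2 Kdr UMIs, and these held Kdr at 77.9 CPM, Etv2 at 136 CPM and Cdh5 at 4.42 CPM. Just outside, 359 cells had 1 Kdr UMI and were otherwise inside, with Cdh5 at 2.21 CPM. By co-markers, 217 gated cells (17.3%) had exactly 2 and held Cdh5 at 0.478 CPM, while 203 cells with 1 co-marker held none. All 7 co-markers were found in 404 cells (138, 116 and 150), with Cdh5 at 84.2 CPM. The gate also kept out 389 cells for a Sox2 UMI alone. These had a median of 47604 UMIs and Epcam at 103 CPM, and 35.2% of them were in the top 6% of doublet scores.

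Against their label, the cells with few co-markers showed little of the endothelial programme outside the genes of the gate. From 2 to 7 co-markers, the mean level of Lmo2, the bridging protein of TAL1 complexes, was 10.9, 30.8, 133, 246, 372 and 474 CPM. Cdh5 went from 0.573 to 92.6 CPM, the adrenomedullin co-receptor Ramp2 from 17.9 to 396 CPM, and the transcription factor Sox7 from 0.794 to 51.5 CPM. Genes of lateral and extraembryonic mesoderm ran the other way: Hand1 had 230, 234, 110, 64.6, 52.2 and 16.9 CPM, Foxf1 went from 81.8 to 12.1 CPM, Bmp4 from 121 to 14.1 CPM and Tbx4 from 63.7 to 1.72 CPM. Median depth over the same bins was 24235, 20249, 14968, 15200, 14216.5 and 18797.5 UMIs. In each embryo the cells with 2 co-markers were the most deeply sequenced of the 6 bins, at 36604, 20230 and 17720.5 UMIs against 26213.5, 14944.5 and 15448 in cells with all 7, and the part of depth in these differences was not tested. The 217 cells with 2 co-markers are thus described here as Kdr-expressing mesoderm, with no endothelial name. They made up 21.4%, 18.0% and 14.5% of the gated cells of the embryos, and cells with all 7 co-markers 39.3%, 34.7% and 26.5%.

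**Figure D1:**
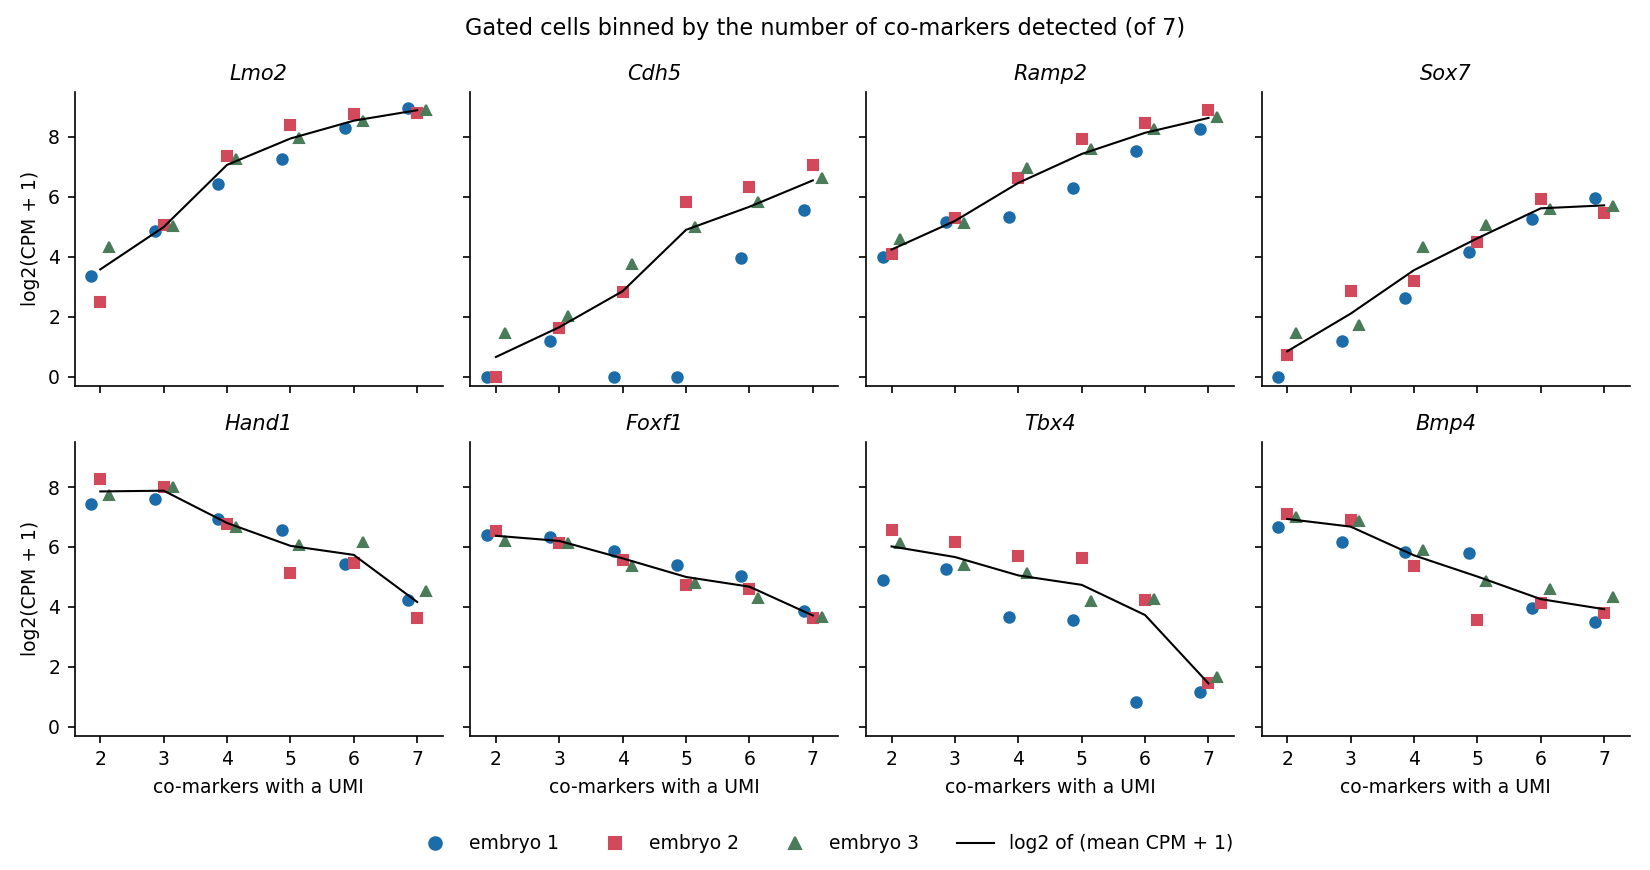
Level of 8 genes in gated cells binned by the number of co-markers detected (x axis, 2 to 7), as log2(CPM + 1) on the y axis, with 1 point per embryo and a line through the log2 of the mean CPM + 1. The top row (Lmo2, Cdh5, Ramp2, Sox7) is higher in bins with more co-markers and the bottom row (Hand1, Foxf1, Tbx4, Bmp4) lower, and Cdh5 in embryo 1 is at 0 in the bins of 2, 4 and 5 co-markers.

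Across genes that the gate did not use, gated cells were compared with the 20917 other cells. These include 1001 erythroid cells (at least 1 UMI of both Gata1 and Klf1), with 2, 707 and 292 from the embryos. At an adjusted p of 0.05 (edgeR's quasi-likelihood test, 3 against 3 embryo sums, Benjamini-Hochberg over 15827 genes), 1971 genes were higher (12.5% of those tested) and 2160 lower (13.6%). The median log2 fold change over all genes was -0.04, and list medians are read beside it. With the embryo as a block, 3239 genes were higher and 3527 lower. Without the second embryo the counts were 1017 and 999, and without the third 542 and 352. The gate picked cells by genes of the endothelial programme, so a p for another gene of that programme is no independent evidence of what the cells are.

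Receptors of VEGF were higher and their ligands mostly were not. Of 7 tested genes of the VEGF axis, 4 rose and none fell (median log2 fold change 1.36). Flt4, the receptor for VEGF-C, stood at 35.8, 36.1 and 35.2 CPM against 1.09 ± 0.217 CPM in the other cells, a log2 fold change of 5.05 ± 0.16 (SE; edgeR, adjusted p = 6.59e-06). The 3 embryos were nearly equal and did not overlap with the rest. The co-receptors Nrp1 (99.1 against 39.0 CPM, log2 fold change 1.36) and Nrp2 (108 against 28.8 CPM, 1.92) also rose, as did the ligand Vegfc (13.3 against 4.79 CPM, 1.48). Vegfa, the main ligand of KDR, was at 15.7, 19.7 and 19.6 CPM against 18.1 ± 0.0755 CPM (log2 fold change 0.03 ± 0.12, adjusted p = 0.893 with edgeR), and Pgf, a ligand of FLT1, missed the threshold (adjusted p = 0.0653, or 0.00258 with the embryo as a block).

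The angiopoietin receptor genes followed Flt4, with 3 of 5 tested genes of that list higher. Tek, the receptor for angiopoietins, stood at 24.3, 39.9 and 33.5 CPM against 1.89 ± 0.701 CPM (log2 fold change 4.11 ± 0.33, adjusted p = 0.000125 with edgeR). Its partner Tie1 stood at 5.65, 16.6 and 13.6 CPM against 0.309 ± 0.164 CPM (5.27 ± 0.57). Both genes were lowest in embryo 1. The ligands Angpt1 and Angpt2 did not pass the test.

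Transcription factors of the endothelium rose together. Of 17 tested genes of that list, 14 rose and none fell (median log2 fold change 2.85), while with the embryo as a block 15 rose and 2 fell, and without the third embryo 10 rose. The SOXF factors of early endothelium were all higher: Sox18 had 19.5, 35.5 and 23.0 CPM against 0.384 ± 0.0229 CPM (log2 fold change 6.08 ± 0.26, adjusted p = 9.13e-06 with edgeR), Sox7 had 27.0, 25.3 and 29.9 CPM against 1.30 ± 0.38 CPM (4.42 ± 0.24), and Sox17, which gut endoderm also expresses, 40.2 against 22.1 CPM (0.86 ± 0.20). The ETS factor Erg was at 4.45, 9.90 and 7.59 CPM against 0.119 ± 0.0496 CPM (5.93 ± 0.44). Lmo2 (chr2:103957986-103981878, plus strand) stood at 233, 252 and 257 CPM against 13.2, 61.5 and 32.6 CPM (2.79 ± 0.48, adjusted p = 0.00412 with edgeR), where the spread lay in the rest and not in the gated cells. The rest held erythroid cells in unequal shares, at 0.0326%, 8.71% and 3.69% of all kept cells, and their part in that spread was not tested. Hhex, a homeobox gene of vessel and blood precursors, rose from 6.73 to 81.0 CPM (3.60 ± 0.20), and Gata2 from 5.08 to 36.5 CPM (2.86 ± 0.24). Without the third embryo Lmo2 (2.69, adjusted p = 0.0854 with edgeR) and Sox17 (0.86) lost their calls.

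Genes of the endothelial surface and its junctions carried large differences at low levels. Of 16 tested genes, 15 rose (median log2 fold change 3.41). Cdh5 (chr8:104101625-104144511, plus strand) stood at 17.9, 61.4 and 43.3 CPM against 1.11 ± 0.585 CPM (5.21 ± 0.59, adjusted p = 0.000625 with edgeR). Cldn5, a tight junction protein, stood at 13.3, 50.9 and 32.3 CPM against 1.79 ± 0.464 CPM (4.16 ± 0.46), and Pecam1, an adhesion molecule of endothelium and platelets, at 26.3, 46.2 and 39.5 CPM against 2.82 ± 1.04 CPM (3.73 ± 0.34). In embryo 1 all of these were below the other embryos. Ramp2 was at 144, 245 and 216 CPM against 23.4 ± 1.85 CPM (3.12 ± 0.20). Emcn, a sialomucin of mature endothelium, was barely present, at 3.94, 5.18 and 1.83 CPM against 0.0465 CPM, and after thinning a UMI was seen in 1.83% ± 1.15 of gated cells. The summed level of the whole surface and junction list was 788, 1372 and 1127 CPM in gated cells. Embryo 1 was the most deeply sequenced of the 3 per cell, and the part of depth in its lower values was not tested.

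**Figure D2:**
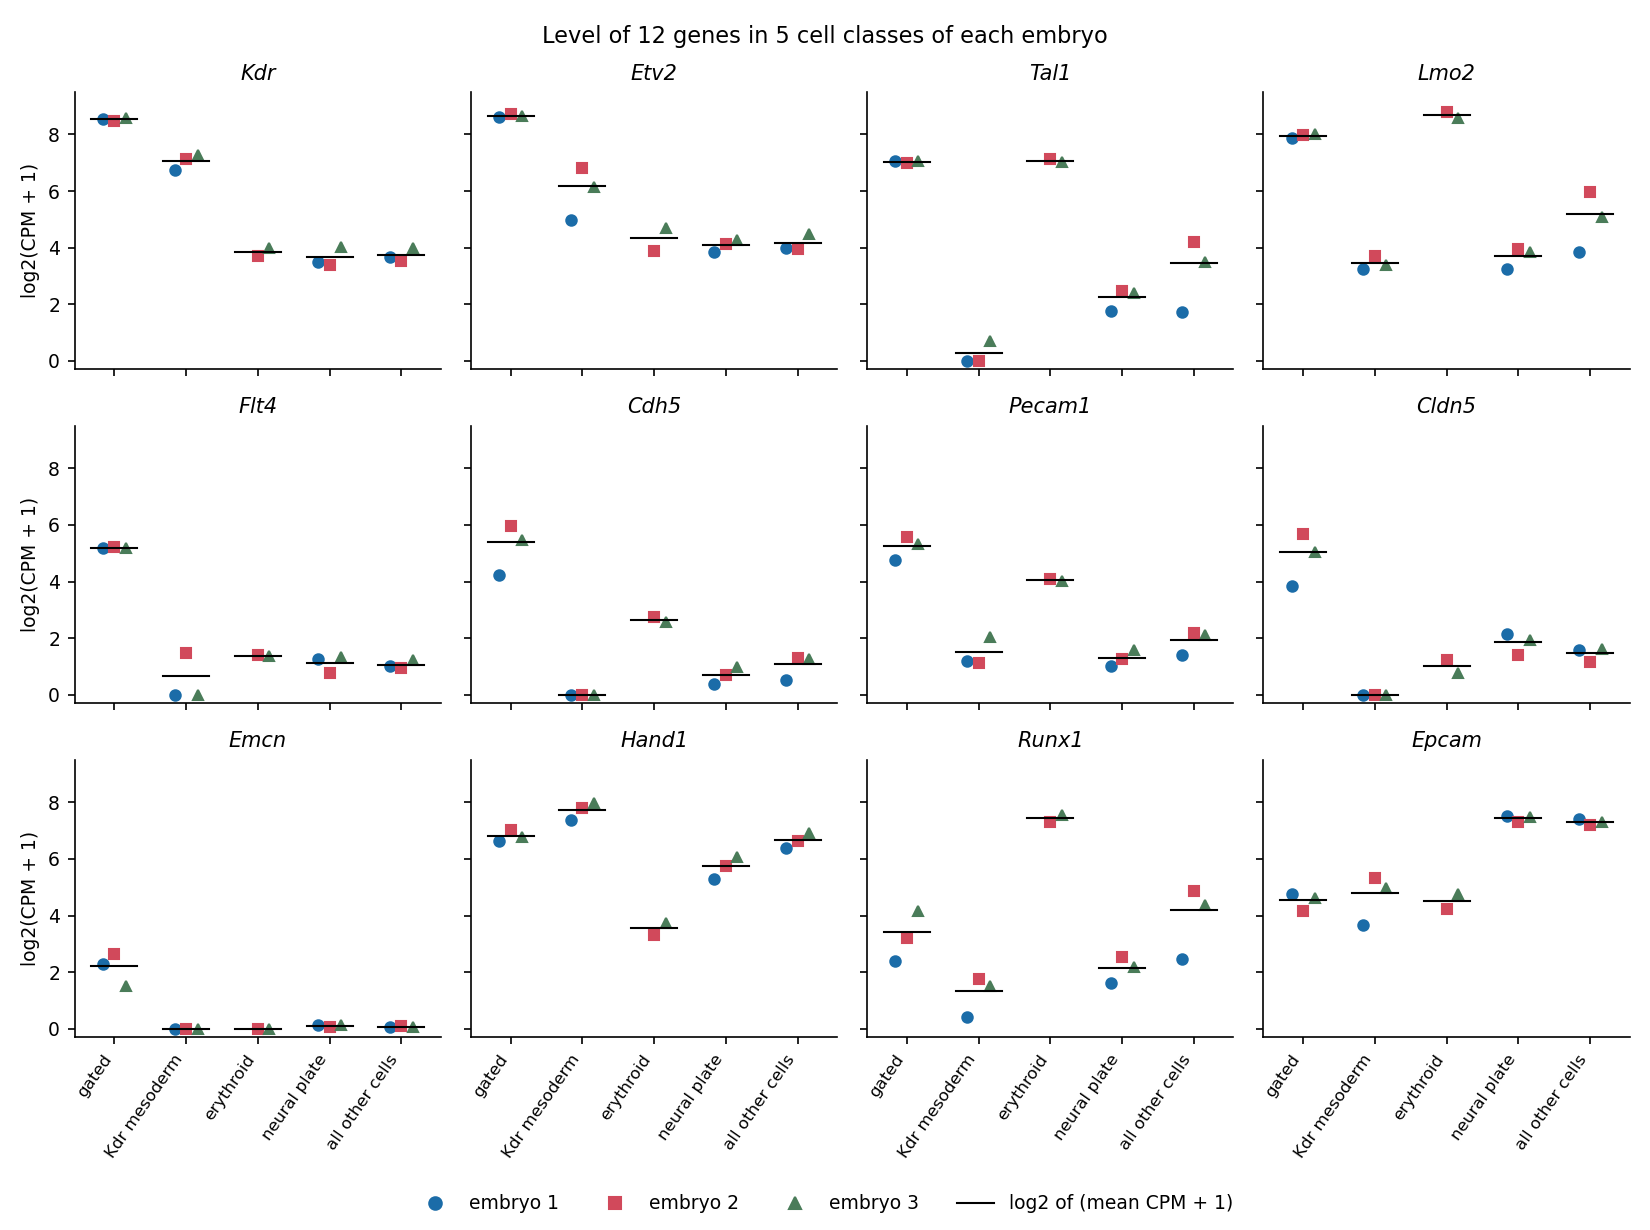
Level of 12 genes in 5 cell classes, as log2(CPM + 1) on the y axis, with 1 point per embryo and a line at the log2 of the mean CPM + 1. Erythroid cells have no point for embryo 1, and Cdh5, Cldn5 and Emcn are at 0 in every embryo of the Kdr-positive mesoderm.

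Rhoj, a small GTPase of endothelium, was at 77.9, 95.7 and 89.3 CPM against 2.36 ± 0.635 CPM (log2 fold change 5.22 ± 0.21, adjusted p = 8.55e-06 with edgeR). Radil, a partner of RASIP1, was at 3.08 against 2.99 CPM (0.05 ± 0.18, adjusted p = 0.877), and its sign turned under stricter gates. Of 12 tested genes of the arterial and Notch list, 7 rose, or 8 with the embryo as a block. Without either the second or the third embryo 4 rose. Notch1 had 86.0, 71.0 and 78.3 CPM against 26.4 ± 7.82 CPM (1.59 ± 0.18), its arterial ligand Dll4 6.25, 8.84 and 3.36 CPM against 0.216 CPM (4.81 ± 0.39), and the connexin gene Gja4 22.2, 42.8 and 46.2 CPM against 0.797 CPM (5.55 ± 0.37). The arterial genes Efnb2 and Cxcr4 did not pass the test, and Gja5 had no UMI in gated cells. Of 4 venous genes, Aplnr, the apelin receptor, rose (75.3 against 19.6 CPM, 1.96), Dab2, an endocytic adaptor that visceral endoderm also expresses, fell by 1.81, and Nr2f2 and Ephb4 did not pass. Without the third embryo Dab2 lost its call (-1.80).

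Of 13 tested genes of BMP and TGF-β signalling, 9 rose and 1 fell. Bmp2 stood at 102, 86.9 and 105 CPM against 15.0 ± 0.993 CPM (log2 fold change 2.72 ± 0.10, adjusted p = 8.3e-06 with edgeR), and the TGF-β co-receptor Eng at 34.4, 46.9 and 43.3 CPM against 1.98 ± 0.332 CPM (4.40 ± 0.18). Bmp4 was at 48.9, 59 and 55.8 CPM against 38.5 ± 6.39 CPM (0.51 ± 0.14, adjusted p = 0.0315 with edgeR), and its sign turned when the gate asked for 3 Kdr UMIs and 3 co-markers (-0.39) or was set on thinned cells (-1.06). Its call was lost without the second embryo (0.45) and without the third (0.62). Among matrix and adhesion genes, 9 of 12 rose, or 11 with the embryo as a block. Those that rose included fibronectin Fn1 (353, 361 and 384 CPM against 176 ± 15.1 CPM, 1.07 ± 0.08) and Hapln1, which links hyaluronan to proteoglycans (102 against 14.6 CPM, 2.81 ± 0.18).

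Genes of the other germ layers were lower, while those of other mesoderm went both ways or did not pass. Cells with a Sox2 UMI were barred from the gate and kept in the rest, so the direction of ectoderm genes follows in part from the choice. Of 10 endocardial and cardiac genes 3 rose (Nfatc1, Npr3 and Tbx20) and 0 fell, or 5 and 2 with the embryo as a block. Tbx20 turned sign with the gate set on thinned cells. The endocardial factor Nfatc1 stood at 18.1, 17.5 and 17.8 CPM against 2.39 ± 0.401 CPM (log2 fold change 2.91 ± 0.17, adjusted p = 2.68e-05 with edgeR). The heart muscle genes Myl7, Tnnt2 and Nkx2-5 did not pass (with the embryo as a block Tnnt2 did, at -0.47, and Myl7, at 0.27). Of 8 genes of mesenchyme and lateral plate 4 rose (5 with the embryo as a block): Gata6 (79.4 against 48.3 CPM, 0.73 ± 0.09), Bmp4, Hand2 and Foxf1. The last 3 turned sign under the stricter gate (-0.39, -0.20 and -0.12) and with the gate set on thinned cells (-1.06, -0.70 and -0.84), where 6 of the 8 fell. Of 8 paraxial and presomitic genes 5 fell (7 with the embryo as a block), among them Tbx6 (6.81 against 16.4 CPM, -1.24 ± 0.22). Without the second embryo 2 of the paraxial and presomitic genes fell and without the third 0 (edgeR). Of 6 allantois genes 4 rose, among them Tbx4, at 14.8, 42.2 and 26.9 CPM against 7.17 ± 2.48 CPM (1.95 ± 0.40, adjusted p = 0.00925 with edgeR), and all 6 rose with the embryo as a block. Tbx4 lost its call under the stricter gate (1.15), with the gate set on thinned cells (1.02) and without the third embryo (2.08). The other 3, Hoxa10, Pitx1 and Hoxc9, lost theirs under both gates and without the second or the third embryo. All 6 ectoderm genes and all 6 endoderm genes fell, with medians of -2.81 and -2.72: Epcam, of epithelia, was at 22.3 against 158 CPM (-2.80) and Ttr, of visceral endoderm, at 83.0 against 734 CPM (-3.14). Without the second embryo 4 endoderm genes fell and without the third 3. Ttr had 49.0, 90.8 and 109 CPM in gated cells and 330, 1139 and 732 CPM in the rest, lowest in embryo 1 in both. How much of it in gated cells was free RNA was not tested. Of 12 cell cycle genes, Cdk1 (0.41), Ccnd1 (0.49) and Cdkn1c (0.63) rose and the inhibitor Cdkn1a fell by 1.64, while with the embryo as a block 5 rose and 2 fell. The calls of Cdk1, Ccnd1 and Cdkn1c were lost without the second embryo (0.40, 0.46 and 0.60) and without the third (0.42, 0.46 and 0.63).

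**Figure D3:**
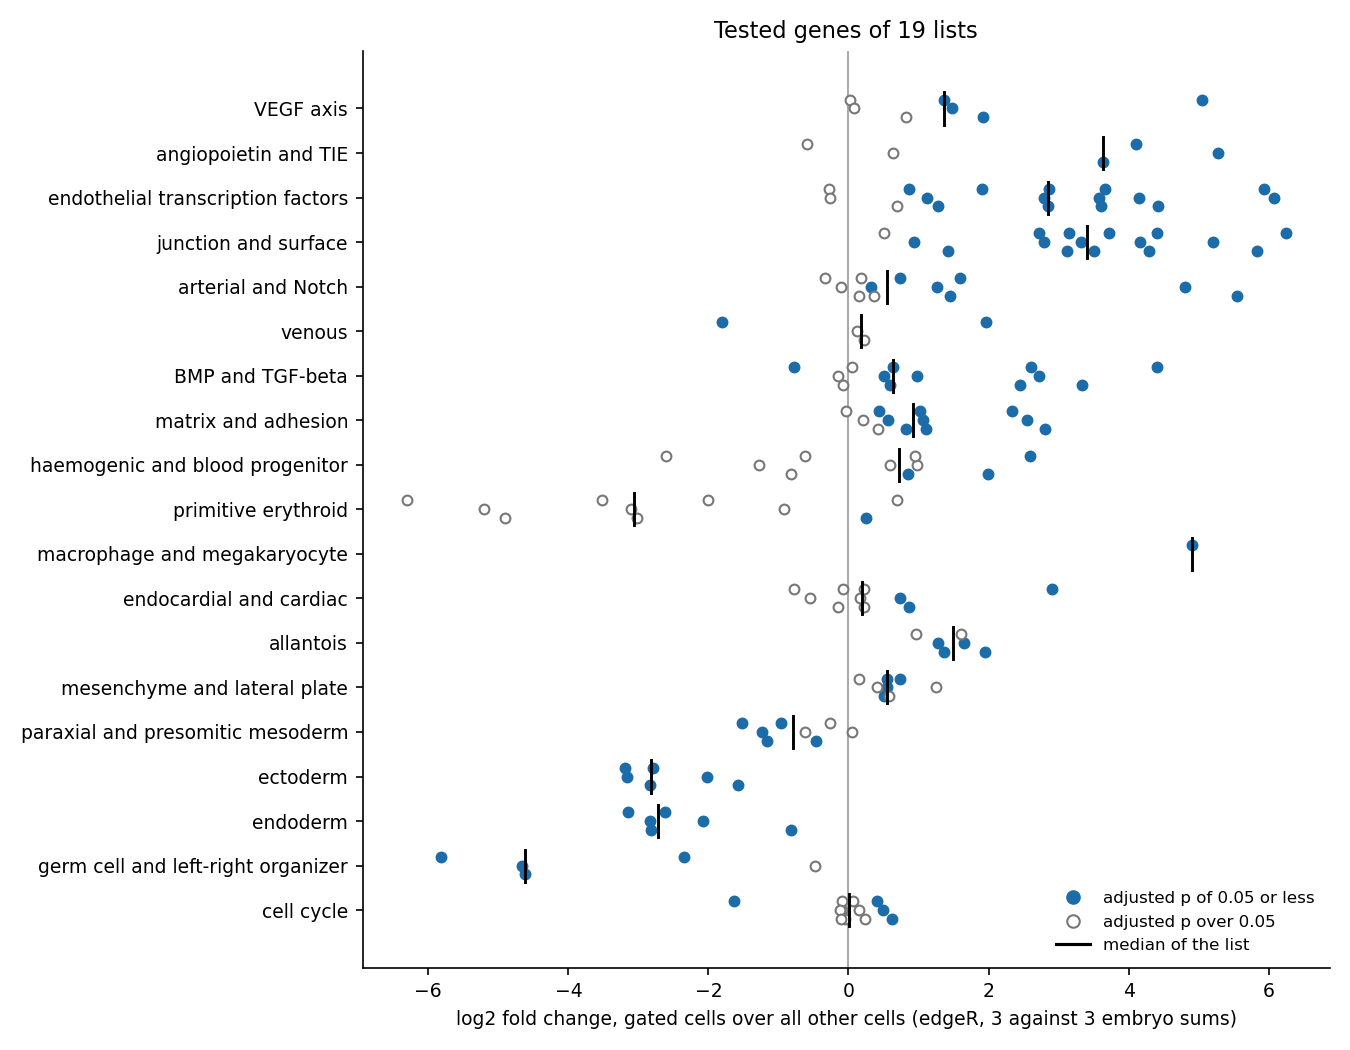
Log2 fold change (x axis) of gated cells over all other cells for the tested genes of 19 lists (y axis), with 1 point per gene, filled where the adjusted p was 0.05 or less, and a bar at each list's median. The medians of the endothelial lists lie to the right of 0 and those of the ectoderm, endoderm and germ cell lists to the left. The erythroid list spreads widely, with every point open but that of Tfrc.

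The largest called changes outside the lists were named by a fixed rule of size. Higher in gated cells were Gadd45g, a growth arrest and DNA damage gene (153, 206 and 211 CPM against 21.2 ± 6.72 CPM, log2 fold change 3.17 ± 0.26), Grrp1 (2.61), Zfp711 (2.58), the unconventional myosin Myo1c (2.53), Fam212a (2.47), Igfbp4, a binding protein of insulin-like growth factors (381, 567 and 498 CPM against 99.0 ± 11.5 CPM, 2.29 ± 0.17), Klf7 (2.17), the LIF receptor Lifr (1.98), Crip2 (1.95) and the RAC exchange factor Tiam1 (1.88). Lower were the apolipoproteins Apob (-3.09), Apoa2 (-3.08) and Apom (-2.81), the visceral endoderm receptor pair Cubn (-2.81) and Amn (-2.69), the retinol carrier Rbp4 (-2.72), S100g (-3.05), the epithelial claudin Cldn6 (-3.03), Chchd10 (-2.96) and the metallothionein Mt1 (-2.93). Gadd45g and Igfbp4 did not overlap between the classes in any embryo. Without the third embryo S100g (-3.66), Apoa2 (-3.42), Apom (-3.07), Cubn (-2.96), Amn (-2.89), Rbp4 (-3.08) and Mt1 (-3.08) lost their calls, and without the second S100g (-2.61) and Apoa2 (-2.67) did.

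The nearest cells outside the gate were 283 that had at least 2 Kdr UMIs, 0 or 1 co-marker and no UMI of Gata1, Klf1 or Sox2 (105, 86 and 92), here called Kdr-positive mesoderm. Since the number of co-markers separates these classes, the genes of the gate are only described: Kdr had 106, 139 and 152 CPM and Etv2 30.8, 112 and 69.8 CPM in the Kdr-positive mesoderm. Lmo2 and other endothelial genes followed the number of co-markers within the gate as well. Their direction here thus follows in part from the choice, and their p-values are no independent evidence. Of 10752 genes, 690 were higher in gated cells (6.42%) and 205 lower (1.91%). With the embryo as a block they were 1336 and 776, without the second embryo 326 and 39 and without the third 199 and 18.

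Lmo2 separated the classes in every embryo, at 233, 252 and 257 CPM against 8.44, 12 and 9.34 CPM (log2 fold change 4.70 ± 0.14, adjusted p = 5.34e-08 with edgeR). Of 17 endothelial transcription factors 14 rose and of 13 surface and junction genes 12 rose, with medians of 3.44 and 4.43. Without the third embryo 9 and 8 rose. Hhex had 1.35 ± 0.635 CPM in the Kdr-positive mesoderm (5.85 ± 0.27), and Rhoj 2.21 CPM (5.15 ± 0.24). Sox7 had 0, 1 and 1 UMIs there and Flt4 0, 3 and 0, too few for a fold. Cdh5, Cldn5 and Sox18 had no UMI there in any embryo, so that they were at least 86.5-fold, 68.1-fold and 55-fold higher in gated cells (against a floor of 3 UMIs over the class, for counting error only). The calls of Cdh5 (adjusted p = 0.0682 with edgeR) and Cldn5 (0.088) were lost without the third embryo.

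Several mesodermal genes were higher in the Kdr-positive mesoderm. Of 7 genes of mesenchyme and lateral plate 4 fell in gated cells (2 without the second embryo and 1 without the third): Hand1 stood at 97.2, 127 and 108 CPM against 166, 221 and 249 CPM (log2 fold change -0.90 ± 0.15, adjusted p = 0.00458 with edgeR), and Bmp4 (-0.88), Foxf1 (-0.90) and Hand2 (-1.08) followed. The classes did not overlap for Hand1. Of 10 endocardial and cardiac genes 4 fell, Gata4, Gata5, Tbx20 and Isl1 (-1.13), a factor of cardiac progenitors, and 1 rose, Nfatc1. With the embryo as a block 4 fell and 3 rose. Without the second embryo 2 of these genes fell and without the third 1, and in both cases 1 rose. Pgf (10.0 against 30.2 CPM, -1.57) also fell. The allantois gene Tbx4 (28.0 against 65.9 CPM, -1.17, adjusted p = 0.143 with edgeR) fell with the embryo as a block (adjusted p = 4.84e-07), as did all 6 allantois genes. Without the block 0 of them fell (edgeR and DESeq2, although 4 had an unadjusted p of 0.05 or less in edgeR, as had 893 of all 10752 genes in that direction), but 5 fell with no filter on low counts and 3 without the first embryo. Named by size were Fam212a (3.03), Myo1c (2.90), Vat1 (2.90), Gadd45g (2.70) and the kinase Sgk1 (2.57) above, and the caudal homeobox gene Cdx4 (-1.47), Irx5 (-1.43), Snai1, a factor of epithelial-mesenchymal transition (-1.18), Spin2c (-1.15) and the WNT antagonist Sfrp1 (-1.13) below. Without the third embryo Hand1 (-0.76), Bmp4 (-0.78), Hand2 (-0.75), Pgf (-1.30), Irx5 (-1.31), Spin2c (-1.03) and Sfrp1 (-1.03) lost their calls, and without the second Bmp4 (-0.84), Foxf1 (-0.81) and Sfrp1 (-1.24) did.

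The blood side of the progenitors was read against 1001 erythroid cells (at least 1 UMI of both Gata1 and Klf1), of which 2, 707 and 292 came from the embryos. The first embryo gave too few for a sum, so 3 gated sums were compared with 2. Erythroid cells were chosen by Gata1 and Klf1 and gated cells by the lack of both, so the direction of other blood genes follows in part from the choice, and their p-values are no independent evidence. Of 12140 genes, 3552 were higher in gated cells (29.3%) and 3273 lower (27%). Without the second embryo, which leaves a lone erythroid sum that is assumed to vary like the gated sums, they were 2370 and 2072. Tal1, a gene of the gate, had 140 and 129 CPM in the erythroid cells of embryos 2 and 3, which is about its level in gated cells. Lmo2 was at 442 and 382 CPM there, above the gated cells (log2 fold change -1.01 ± 0.10, adjusted p = 2.59e-05 with edgeR). Gata2 (14.7 and 36.3 CPM) and Lyl1 (11.3 and 9.66 CPM), which serve both lineages, did not pass the test (adjusted p = 0.367 and 0.585 with edgeR), although Gata2 did with the embryo as a block (0.0464, from embryos 2 and 3 alone).

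Of 9 tested genes of the haemogenic and blood progenitor list, 7 were lower in gated than in erythroid cells and 1 higher. Runx1 (chr16:92601466-92826149, minus strand), the factor of blood emergence, stood at 4.19, 8.23 and 17.0 CPM in gated cells against 157 and 188 CPM (log2 fold change -4.40 ± 0.36, adjusted p = 1.1e-05 with edgeR). The repressor Gfi1b had 0.171, 0.762 and 3.08 CPM against 53.5 and 62.2 CPM (-5.66 ± 0.45), and Myb 3.17 against 38.1 CPM (-3.87 ± 0.23). Against all other cells, erythroid cells among them, Runx1 did not differ beyond its spread (4.47, 28.2 and 19.5 CPM there, -0.82 ± 0.69, adjusted p = 0.428 with edgeR), while Cbfa2t3, a corepressor in TAL1 complexes, rose (1.99 ± 0.37), as did Spi1 (2.41 against 0.397 CPM, 2.60 ± 0.73) and Kit (21.8 against 12.1 CPM, 0.85 ± 0.19). These were 3 of 10 tested genes of that list, with none lower, and with the embryo as a block 5 rose and 2 fell. Without the third embryo the calls of Cbfa2t3 (1.92), Spi1 (2.74) and Kit (0.76) were lost, and without the second those of Spi1 (2.96) and Kit (0.68). Against Kdr-positive mesoderm 4 of 6 tested genes of the list rose and none fell: Runx1 (0.325, 2.40 and 1.87 CPM there, log2 fold change 2.95 ± 0.79, adjusted p = 0.0451 with edgeR), Cbfa2t3 (35.8 against 6.68 CPM, 2.41 ± 0.20), Kit (21.8 against 8.94 CPM, 1.33 ± 0.29) and Itga2b, with too few UMIs there for a fold. Without the second embryo, and likewise without the third, only Cbfa2t3 of the 4 kept its call (Runx1 at 3.60 and 2.48, Kit at 1.11 and 1.44). After thinning, Runx1 was seen in 4.58% ± 2.63 of gated cells and 1.31% ± 0.493 of neural plate cells. Ptprc, which encodes the pan-leukocyte antigen CD45, had no UMI in gated cells.

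All 10 erythroid genes were lower in gated than in erythroid cells. Hbb-bh1 stood at 0, 23.3 and 4.42 CPM against 5482 and 2202 CPM (log2 fold change -9.24 ± 0.91, adjusted p = 2.96e-05 with edgeR). Neural plate cells had 0, 53.3 and 10.4 CPM of Hbb-bh1, above the gated cells in embryos 2 and 3 and at 0 in both classes in embryo 1. The carbonic anhydrase gene Car2, by contrast, was well present in gated cells, at 99.1, 103 and 90.2 CPM against 516 and 473 CPM (-2.62 ± 0.09), and it stood above the Kdr-positive mesoderm (15.4 CPM, 2.69 ± 0.12). In turn, all 15 tested surface and junction genes were higher in gated than in erythroid cells, with Cdh5 at 5.71 and 4.92 CPM in the latter (2.61 ± 0.49) and Pecam1 at 16.2 and 15.1 CPM (0.95 ± 0.23). Pecam1 lost its call without the third embryo (0.84). By size were named Dok4 (4.19), Dlc1 (4.19), Grrp1 (3.78), the imprinted gene Mest (594, 997 and 823 CPM against 47.2 and 51.4 CPM, 3.76 ± 0.22) and Stard8 (3.69) above, and Nrip3 (-5.81), the tetraspanin Tspan33 (-5.71), the transporter Slc38a5 (-5.45) and Cpne7 (-5.06) below.

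A further 116 cells met the limits on Kdr and co-markers but had a UMI of Gata1 or Klf1 (7, 42 and 67), and 27 of them also had one of Sox2. They held Kdr at 384, 293 and 189 CPM, Etv2 at 106, 89.1 and 147 CPM and Cdh5 at 47.6, 111 and 32.2 CPM. The same cells held Runx1 at 62.2, 129 and 109 CPM and Hbb-bh1 at 0, 524 and 171 CPM. Each Runx1 value lay above the gated cells, and each Etv2 value below. These cells were chosen on blood genes and Kdr, so the levels are a description, and 20.7% of them were in the top 6% of doublet scores. Joined droplets and cells of mixed identity cannot be told apart here.

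**Figure D4:**
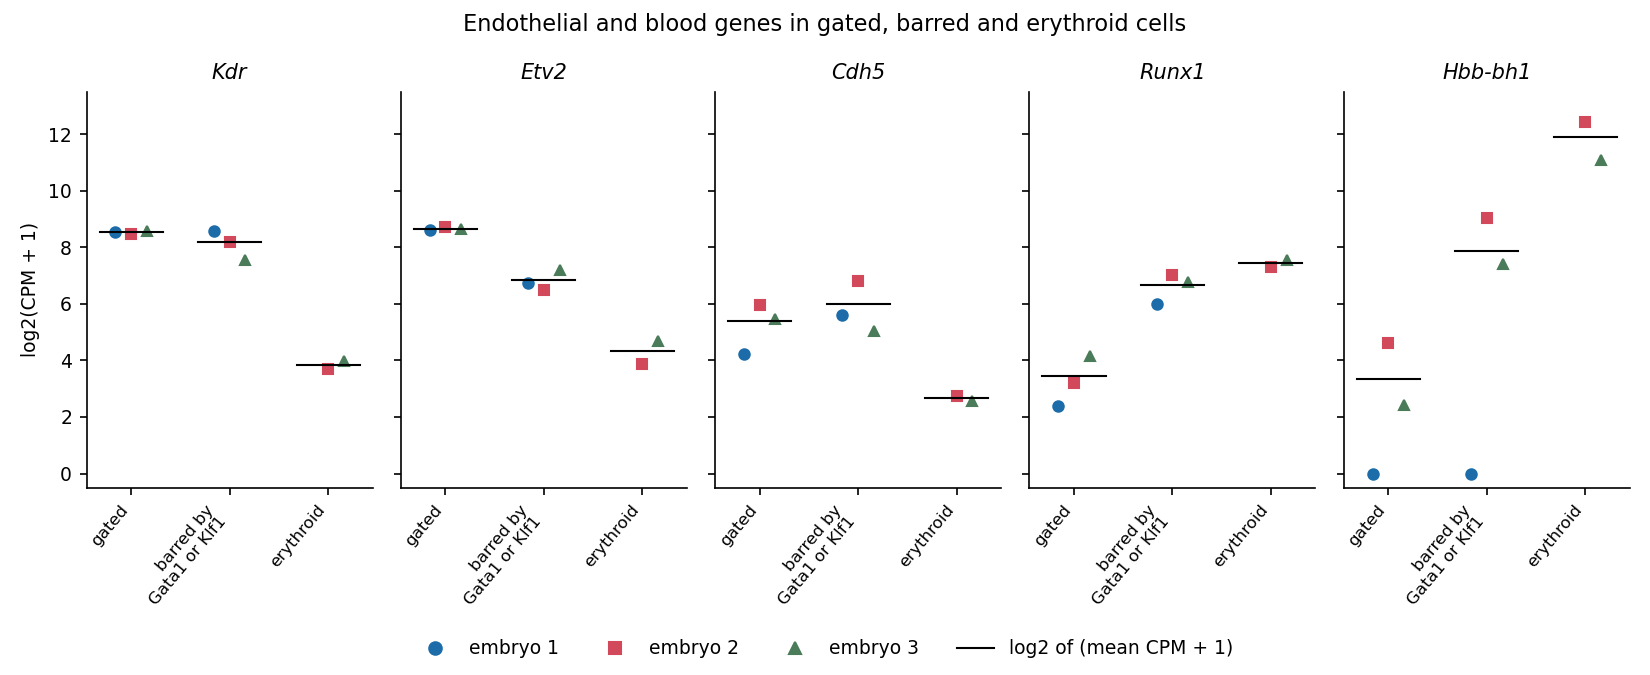
Level of 5 genes as log2(CPM + 1) on the y axis in gated cells, in cells kept out of the gate by a UMI of Gata1 or Klf1, and in erythroid cells, with 1 point per embryo and a line at the log2 of the mean CPM + 1. Kdr and Etv2 are lowest and Runx1 and Hbb-bh1 highest in erythroid cells, for which embryo 1 has no point, and Hbb-bh1 is at 0 in embryo 1.

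Within the gate, cells with and without a UMI of Etv2 after thinning were compared (241, 231 and 386 with, 110, 103 and 179 without). Of the 392 cells without a UMI after thinning, 271 (69.1%) had 1 or more before it, so the split is by the level of Etv2 and not by its absence. The cells without Etv2 after thinning had been sequenced more deeply, with medians of 34532.5, 19724 and 16835 UMIs against 26841, 14361 and 14010. Of 10506 genes, 7 were higher in cells with Etv2 (0.0666%) and 5 lower (0.0476%). Gcc2, which encodes a golgin, stood at 211, 185 and 176 CPM against 75.4, 85.4 and 91.6 CPM (log2 fold change 1.16 ± 0.11, adjusted p = 0.013 with edgeR), and the TEAD cofactor Vgll4 at 116 against 70.5 CPM (0.69 ± 0.10). Bmp4 had 25.0, 32.2 and 41.5 CPM in cells with Etv2 against 87.8, 97.8 and 79.0 CPM (-1.44 ± 0.18, adjusted p = 0.0321 with edgeR). The glucose transporter Slc2a1 had 195, 163 and 200 CPM against 350, 397 and 282 CPM (-0.90 ± 0.13), and the small GTPase Arl4c also fell (-0.97 ± 0.13). With the embryo as a block the counts were 184 higher and 203 lower, and 6 of 7 tested genes of mesenchyme and lateral plate were lower, among them Hand1 (60.4, 67.5 and 91.2 against 157, 214 and 135 CPM, -1.20). DESeq2 called 55 and 64. Without the first embryo edgeR called 37 and 26. Without the second or the third edgeR called 0 genes in either direction, while 330 higher and 313 lower, and 429 higher and 423 lower, had an unadjusted p of 0.05 or less, and Bmp4 had -1.35 and -1.72. With the cells split on unthinned UMIs, Bmp4 (-1.08), Slc2a1 (-1.42), Arl4c (-1.16) and Vgll4 (0.57) lost their calls.

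Of 17 tested endothelial transcription factors, 6 were higher in cells with Etv2 when the embryo was a block and 0 without it (edgeR), although 7 had an unadjusted p of 0.05 or less, as had 576 of all 10506 genes in that direction, and DESeq2 called 2. Without the block, edgeR called 7 with no filter on low counts, 3 without the first embryo and 2 with top doublet scores removed. Cells with Etv2 held on average 4.63, 4.28 and 4.13 of the other 6 co-markers and cells without it 2.77, 3.59 and 4.15, so that the classes differed in embryos 1 and 2 and hardly in embryo 3, and the gradient by co-markers and this split were not told apart. Of 7 haemogenic and blood progenitor genes 0 were called in either fit or by DESeq2, and 0 had an unadjusted p of 0.05 or less without the block. Hhex had 98.5, 111 and 112 CPM against 21.6, 39.9 and 59.3 CPM (log2 fold change 1.4 ± 0.28, adjusted p = 0.085 with edgeR, or 0.00771 with the embryo as a block). Sox7 (1.45, adjusted p = 0.0506 with edgeR, or 0.0082 with the block), Gata2 (1.19, 0.0569 and 0.0104) and Lmo2 (329, 319 and 284 against 75.6, 154 and 214 CPM, 1.05, 0.194 and 0.0379) had the same sign. For these 4 genes the classes did not overlap, which describes the values and is no test, since the share of all genes that did not overlap is not given. Cdh5 had 22.5, 48.9 and 35.3 CPM with Etv2 and 10.4, 79.5 and 56.0 CPM without (-0.45 ± 0.55, adjusted p = 0.833 with edgeR), and its order differed between embryos. Of single cells after thinning, 57.7%, 59.3% and 52.8% of those with Etv2 also had Tal1, against 10%, 30.1% and 30.7% of those without. Both genes are co-markers, so the gate itself sets in part how often they occur together. Lmo2 was seen in 65.2% ± 2.43 of cells with Etv2 and 42.5% ± 14.6 of cells without.

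Some gated cells held markers of the allantois, the mesodermal bud that joins the chorion to make the umbilical vessels. A UMI of Tbx4, Hoxa10 or Hoxa11 was left after thinning in 25, 55 and 100 gated cells, against 326, 279 and 465 without. This was 13.8% ± 5.78 of gated cells, against 5.67% ± 1.99 of all other cells and 1.86% ± 1.23 of neural plate cells, and where in the embryo the cells lay was not measured. Of 10207 genes other than those that set the gate and this split, 335 were higher in cells with these markers (3.28%) and 390 lower (3.82%). With the embryo as a block they were 636 and 819. Without the first embryo they were 244 and 407, without the second 125 and 115, and without the third 127 and 172. Other allantois genes rose in all 3 cases tested: Hoxa13 stood at 15.6, 21.5 and 12.7 CPM against 0.709 ± 0.354 CPM (log2 fold change 4.58 ± 0.43, adjusted p = 0.000102 with edgeR), Pitx1 at 219, 297 and 233 CPM against 14.7, 44.2 and 20.7 CPM (3.28 ± 0.32) and Hoxc9 at 65.8 against 6.56 CPM (3.45 ± 0.45). Further Hox genes were among those named by size, with Hoxa7 (3.57), Hoxc8 (3.39), Hoxa9 (3.36), Hoxd9 (2.77) and Hoxb6 (2.37).

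Cells with allantois markers held less of the endothelial programme and more VEGF ligand. They also had fewer co-markers: 44.6% ± 10.3 of them had exactly 2 and 4.94% ± 3.68 all 7, against 13.7% ± 4.92 and 37.9% ± 6.54 of the cells without, and the gradient by co-markers given above and this split were not told apart. Of 17 endothelial transcription factors 12 fell (16 with the embryo as a block, 5 without the second embryo), and of 13 surface and junction genes 9 fell (12 with the block, 2 without the second embryo and 3 without the third). The medians were -1.87 and -1.95. Lmo2 stood at 26.1, 43.0 and 100 CPM against 247, 288 and 287 CPM (log2 fold change -2.15 ± 0.28, adjusted p = 0.000761 with edgeR), Pecam1 at 7.61 against 42.0 CPM (-2.46 ± 0.35) and Cdh5 at 0, 12.3 and 11.5 CPM against 19.1, 70.0 and 49.2 CPM (-2.35 ± 0.64, adjusted p = 0.0475 with edgeR). Dll4 had no UMI in cells with allantois markers and was at least 7.97-fold lower there. Etv2, by description, did not follow, at 249, 516 and 479 CPM against 394 ± 10.9 CPM, while Flt1 was at 26.5 against 155 CPM. Vegfa stood at 36.5, 50.2 and 31.3 CPM against 15.3 ± 1.81 CPM (1.32 ± 0.21, adjusted p = 0.00268 with edgeR) and Pgf at 33.9, 46.1 and 22.3 CPM against 6.65 ± 2.39 CPM (2.33 ± 0.32). The classes did not overlap for Vegfa or Pgf. The mesodermal genes Hand1 (1.44 ± 0.14), Bmp4 (1.43 ± 0.13) and Foxf1 (1.15 ± 0.24) and the Notch ligand Jag1 (1.62 ± 0.19) rose as well. Named by size below were Tnfaip2 (-3.17), Pkdcc (-3.02), Vat1 (-2.44), the homeobox gene Meis1 (-2.11) and Ptp4a3 (-2.08). Of 10 endocardial and cardiac genes 3 rose, Tbx20 (1.53), Isl1 (1.26) and Gata4 (1.13), and 1 fell, the heart muscle light chain gene Myl7 (-2.51), while 6 fell with the embryo as a block or with no filter on low counts. Gata4 lost its call without the second embryo (0.96) and without the third (1.17). Cdh5 lost its call with DESeq2 (-2.54), with the cells split on unthinned UMIs (-2.08), without the second embryo (-2.18) and without the third (-2.70), Dll4 without the first or the second, and Vegfa (1.06) and Foxf1 (1.27) without the second.

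**Figure D5:**
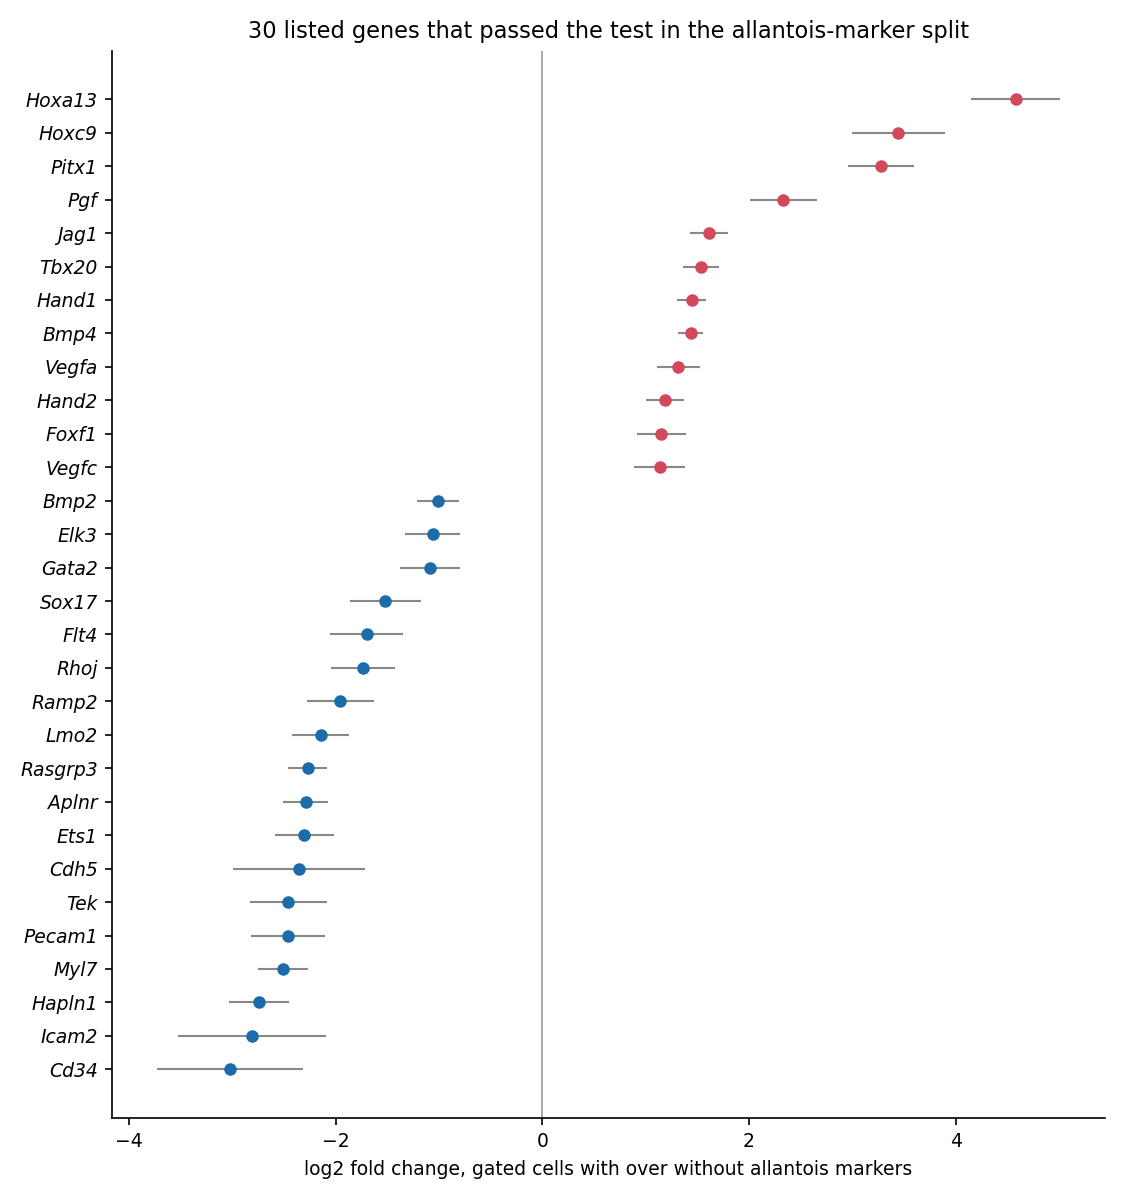
Log2 fold change (x axis) of gated cells with over without allantois markers for 30 listed genes that passed the test (y axis), with bars of 1 SE from the fit over 3 against 3 embryo sums. Mesodermal and ligand genes (red) lie above 0, led by Hoxa13, and 18 mostly endothelial genes (blue) lie below.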

How the data were processed

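The authors made each library with the 10x 3′ v3 kit and deposited the UMI counts of its cell barcodes for 31054 features (Cell Ranger 3.1.0 and build mm10, per the labels). The counts were used as deposited. Cells were kept at 1500 to 8500 genes (7500 in embryo 2) and at most 10% mitochondrial UMIs, the limits of the study, whose later removal of clusters taken for doublets or empty droplets was not repeated. No column lacked a sample. Members, gene lists and comparisons were chosen with earlier results of these data known. Scrublet (scanpy 1.11.5) by its own threshold marked almost no cells, so doublets were not removed, and an alternative dropped the top 6% of scores.

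UMIs were summed per embryo and class (at least 10 cells) and tested with edgeR 4.0.16 in R 4.3.3 (TMM, filterByExpr, quasi-likelihood), with Benjamini-Hochberg adjustment over all tested genes but the 11 of the gate (14 in the allantois split). The embryo is the replicate, so p-values measure the spread between 3 embryos. Where classes are said not to overlap, this describes the named genes alone, and the share over all genes is not given. Sums of the same animal pair, and their deviations from class means correlated at 0.116 to 0.455 across genes, and blocked values are given beside some of the counts and genes they change. Named were genes of 20 lists and, outside them, the 10 called genes each way with the largest change (5 in the other comparisons), at 50 CPM or more in the higher class and the same direction in every embryo, of which 1 gene and 1 list are not reported here. Alternatives were DESeq2 1.42.0, RLE size factors, no filter on low counts, the block, each embryo left out, stricter, looser and thinned gates, an unthinned split, top doublet scores removed, barcodes under 0.5% mitochondrial UMIs removed and, added after the data were seen, cells barred by Sox2 alone kept out of the rest. The steps were tested on simulated data.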

Additional observations from a re-analysis of the deposited data

Results flagged for a closer look

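The feature table includes the reporter EGFP, which no label of these wild-type embryos mentions. The paper states that the reference used for alignment held the EGFP sequence. Over all barcodes, 31 EGFP UMIs were counted in embryo 1, 32 in embryo 3 and 0 in embryo 2. In gated cells there was 1 EGFP UMI in each of embryos 1 and 3. These counts were flagged because they lie outside every comparison and above the limit of 3 counts that a count of 0 allows, and their source was not tested.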

How the results depend on the processing

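The design has 3 embryos and 1 library for each, so embryo, library and depth cannot be told apart. Against all other cells, the block on the embryo gave 3239 genes higher and 3527 lower, and leaving out 1 embryo at a time gave 542 to 1899 higher and 352 to 2004 lower, the fewest without the third. Signs turned with the gate: under the stricter gate for Radil (-0.85), Bmp4 (-0.39), Hand1 (-0.68), Hand2 (-0.20) and Foxf1 (-0.12), and with the gate on thinned UMIs for Radil (-2.08), Bmp4 (-1.06), Hand1 (-1.72), Hand2 (-0.70), Foxf1 (-0.84), Tbx20 (-0.14), Isl1 (-0.44), Pitx1 (-0.051), Ahnak (-0.71) and Acta2 (-3.26). The percent of kept cells in the gate, mean of 3 embryos, was 7.31% with the looser gate in place of 5.66%. With the thinned gate the percent was 3.21%, taken over the kept cells with at least 5000 UMIs alone. Against Kdr-positive mesoderm the counts were 1168 and 373 with no filter on low counts, 1336 and 776 with the block, and 199 to 706 and 18 to 294 without 1 embryo. Against erythroid cells they were 2370 to 3440 and 2072 to 3115 without 1 embryo, and the endoderm gene Trh turned sign in the blocked fit (-0.84), which holds embryos 2 and 3 alone. For the Etv2 split DESeq2 gave 55 and 64, no filter 191 and 168, the block 184 and 203, removal of top doublet scores 29 and 23, and leaving out 1 embryo 0 to 37 and 0 to 26. For the allantois split no filter gave 857 lower, the block 636 and 819, and leaving out 1 embryo 125 to 244 and 115 to 407. The cause of these changes was not tested. Of the values recomputed for named genes and counts, 109, 61, 37, 14 and 68 fell short of the threshold they had passed, against all other cells, against Kdr-positive mesoderm, against erythroid cells, in the Etv2 split and in the allantois split, and 2299, 1283, 1507, 1418 and 1338 kept their direction and their side of it.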

Other observations

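Of 12 tested cell cycle genes, 7 were lower in gated than in erythroid cells and 2 higher, in a comparison that called 27% of all genes lower and 29.3% higher. Ccnd1, which encodes cyclin D1, stood at 329, 274 and 297 CPM in gated cells against 26.8 and 42.3 CPM in the erythroid cells of embryos 2 and 3 (log2 fold change 2.88 ± 0.17, adjusted p = 1.66e-06 with edgeR). Cyclin D2 ran the other way, with Ccnd2 at 380, 269 and 316 CPM against 440 and 736 CPM (-1.14 ± 0.18). The inhibitor gene Cdkn1c was at 249, 360 and 334 CPM against 30.4 and 41.4 CPM (2.88 ± 0.19), and the proliferation gene Mki67 at 196, 199 and 189 CPM against 264 and 257 CPM (-0.70 ± 0.08). None of these genes overlapped between the classes, which had 3 and 2 sums, and the share of all genes that did not overlap is not given.

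Of 6 macrophage and megakaryocyte genes, 5 were too low to be tested. Pf4, a platelet chemokine, was at 1.63, 3.05 and 2.88 CPM in gated cells against 0.084 CPM in all other cells (log2 fold change 4.90 ± 0.55, adjusted p = 0.000594 with edgeR), and had no UMI in Kdr-positive mesoderm. Csf1r, of macrophages, was at 0, 0 and 0.192 CPM. Of 5 genes of germ cells and the left-right organizer, 4 fell against all other cells, or 2 without the third embryo. Of 10 erythroid genes, Tfrc, the transferrin receptor, rose against all other cells, erythroid cells among them, and 9 did not pass, while 7 fell with the embryo as a block, 6 without the first embryo, 2 with DESeq2 and 1 with no filter on low counts. Tfrc lost its call with the looser gate (0.13), with no filter on low counts (0.23), without the second embryo (0.21) and without the third (0.25).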
